A study of Sus scrofa with 20 samples.

Results

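The 10 genes described here encode the transcription factors best known for driving or timing the formation of fat cells: PPARG, CEBPA, CEBPB, CEBPD, EBF1, EBF2, KLF15, KLF4, ZNF423 and GATA2. They were chosen by symbol, and all 10 were matched to a pig gene among the 31907 genes of the count table. Sequencing of poly(A) RNA (RNA-seq) was done on backfat and liver of 5 Nanchukmacdon boars, a Korean pig breed, with 5 libraries per tissue and 10 in all. The labels mark every library as WT, give an age of 22 months and a normal state, name no treatment and no other allele, and tie no library to an animal. Libraries are named here by tissue and by the number in the column names of the table, 65, 67, 69, 71 or 72. Each number occurs once in either tissue, but no source says that a number is a boar, so libraries of the same number are set side by side below as a description only. The samples were pieces of whole tissue, so a lower level may stand for fewer cells that express a gene or for less RNA per cell, and these cannot be told apart.

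White fat cells arise from fibroblast-like progenitors in a known order of transcription factors. CEBPB and CEBPD are induced first by hormones, KLF4 acts with them early, and ZNF423, EBF1 and EBF2 prepare the progenitor. These factors switch on PPARG and CEBPA, which maintain each other and the genes of the mature fat cell, while GATA2 is expressed in preadipocytes and holds the process back. Liver uses several of the same factors for other ends, since CEBPA and CEBPB drive many hepatocyte genes and KLF15 controls amino acid breakdown and glucose production during fasting.

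The libraries held between 43820042 and 61772737 counts. Expression is given below as TMM CPM, counts scaled by library size after edgeR's trimmed-mean normalization, which allows for the make-up of each library. Values given as CPM alone, for markers and summed lists, are shares of all counts without TMM. The TMM factors were 1.18 to 1.44 in backfat and 0.65 to 0.92 in liver. CPM alone thus sets backfat higher against liver than TMM CPM does, while all calls include TMM. Markers followed the labels: 5 adipocyte markers together reached 10752 to 16338 CPM of all counts in backfat and 7.05 to 8.69 in liver, and 6 hepatocyte markers together reached 18850 to 81586 in liver and 202 to 700 in backfat. Liver 67 stood apart, with the lowest hepatocyte sum and 44.5% of its counts from mitochondrial protein genes, against at most 20.2% in any other library. Its 3 skeletal muscle markers summed to 114 CPM, against at most 1.12 in the other livers, its smooth muscle and pericyte markers to 244 against at most 139, and its mast cell markers to 19.8 against at most 9.36. Backfat 69 had the highest hepatocyte sum of the backfat libraries, with ALB, the gene of serum albumin, at 44.6 CPM. Values of the 10 factors that turn on these libraries are given with and without them.

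All 10 factors passed the filter on low counts. A gene was called where the adjusted p of edgeR's quasi-likelihood test was 0.05 or less. By this, 7 factors were higher in backfat, 1 (KLF15) was higher in liver and 2 (CEBPB and CEBPD) were not called. Of the 16275 genes tested, 55.0% were called, 28.0% higher in backfat and 27.0% higher in liver. With a log2 fold change of at least 2 as well, 5 factors were higher in backfat and 0 in liver, where 11.1% of all genes were called higher in backfat and 11.2% higher in liver. The median log2 fold change, backfat over liver, was 2.86 over the 10 factors and 0.00 over all genes tested. Levels of the tissues did not overlap for 7 factors, and for 42.6% of all genes tested. In 6 of the factors every backfat library lay above every liver library (22.9% of all genes tested), and KLF15 showed the reverse. The plot of levels by library shows these patterns side by side.

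**Figure D1:**
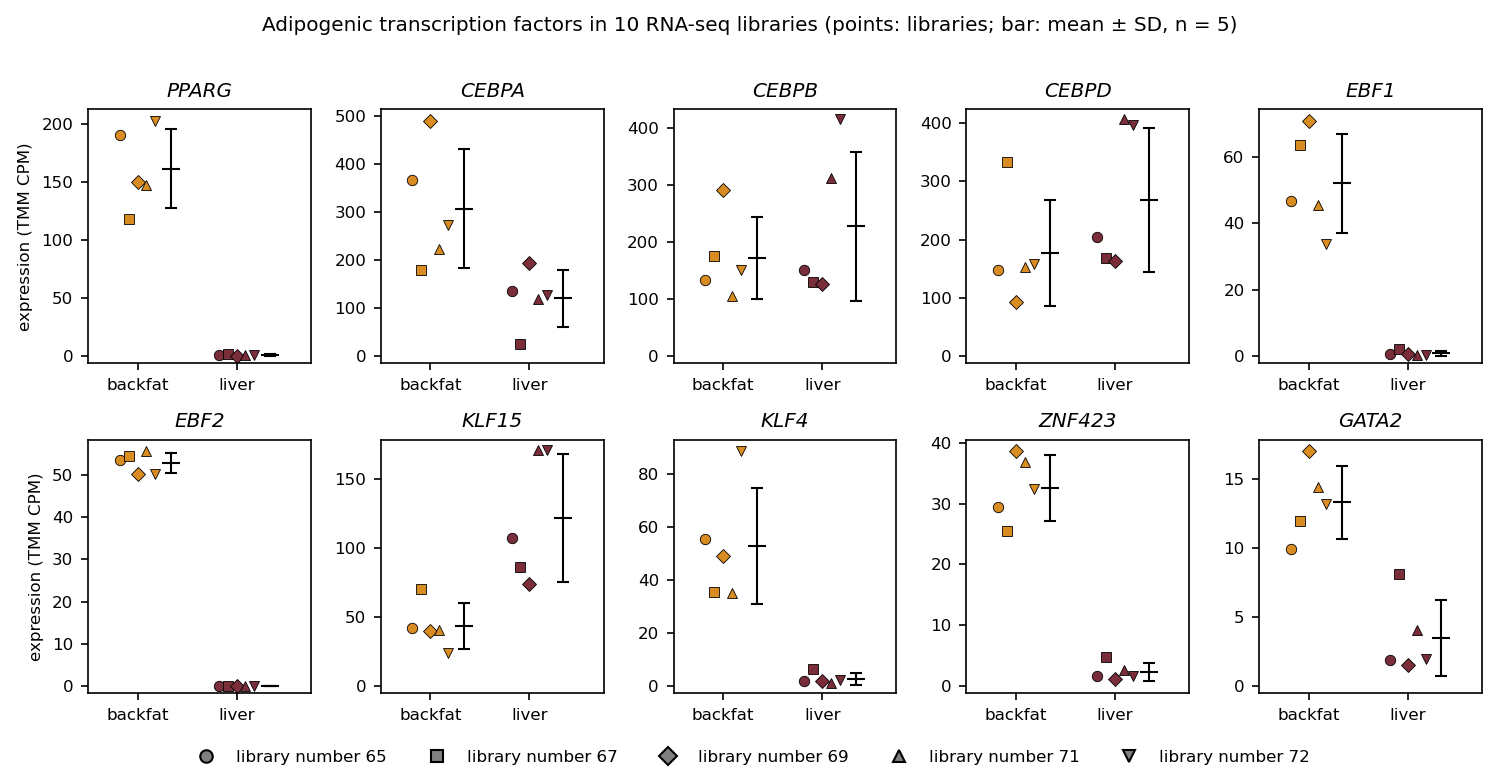
Level of each factor (y axis, TMM CPM, linear scale of its own in each panel) in 5 backfat and 5 liver libraries (x axis), with a symbol per library number and the mean ± SD of the 5 libraries beside the points. PPARG, EBF1, EBF2, KLF4 and ZNF423 lie far above liver in backfat, GATA2 is higher without overlap, CEBPA, CEBPB and CEBPD overlap, and KLF15 lies higher in liver.

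The DNA just before the start of a gene is shown for 5 factors that span these patterns, from EBF2, nearly restricted to backfat, to KLF15, higher in liver. Each line gives the 120 bases before the first annotated RefSeq start on Sscrofa11.1, 5′ to 3′ on the strand of the gene, at chr13:68301446-68301565 (plus strand) for PPARG, chr14:10027575-10027694 (minus) for EBF2, chr6:43085885-43086004 (minus) for CEBPA, chr7:53890559-53890678 (minus) for KLF15 and chr13:71981019-71981138 (plus) for GATA2. Capitals mark GC boxes (GGGCGG on either strand, bound by SP and KLF proteins) and the CCAAT box.
PPARG: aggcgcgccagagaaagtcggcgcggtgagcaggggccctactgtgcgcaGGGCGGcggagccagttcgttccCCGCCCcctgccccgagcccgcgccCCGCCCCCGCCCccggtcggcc
EBF2: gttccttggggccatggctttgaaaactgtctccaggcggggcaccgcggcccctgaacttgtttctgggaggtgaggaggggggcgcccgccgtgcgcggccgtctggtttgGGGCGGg
CEBPA: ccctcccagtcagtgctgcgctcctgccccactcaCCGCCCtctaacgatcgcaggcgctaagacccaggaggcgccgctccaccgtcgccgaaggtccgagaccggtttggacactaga
KLF15: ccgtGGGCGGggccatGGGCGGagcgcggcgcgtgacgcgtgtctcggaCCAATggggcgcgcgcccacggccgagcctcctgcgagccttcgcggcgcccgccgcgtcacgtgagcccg
GATA2: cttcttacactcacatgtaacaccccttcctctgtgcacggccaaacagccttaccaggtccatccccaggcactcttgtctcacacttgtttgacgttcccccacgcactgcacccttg

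The liver-higher KLF15 and the backfat-higher PPARG both have starts rich in CG dinucleotides, with 24 and 17 in the stretches shown, and GATA2 has 3. Over windows of 300 bases, from 250 before to 50 after the start, KLF15 had 43 CG dinucleotides, CEBPD 41, KLF4 38, PPARG 36, CEBPA 29, EBF2 25, EBF1 21, ZNF423 10 and GATA2 6, and the median over 17694 pig genes was 17. No window is given for CEBPB, whose RefSeq record begins at its start codon. A GC box stood in 6 of the 9 windows (PPARG, CEBPA, CEBPD, EBF2, KLF15 and KLF4), and in 53.5% of all windows. The letters of the CCAAT box stood in 3 (EBF1, EBF2 and KLF15, against 35.6% of all windows). The KLF motif CCACCC stood in 2 (CEBPA and EBF1, against 35.5%) and the TATA box letters TATAAA in 1 (CEBPA, against 10.2%). TATAAA in CEBPA began 18 bases after the start, not before it. The CCAAT letters began 35 bases after the start in EBF1 and 23 after it in EBF2. None of the 9 windows held the C/EBP palindrome TTGCGCAA (0.215% of all windows), the EBF motif CCCNNGGG (20.6%), the GATA motif AGATAA (8.26%) or the direct repeat read by PPAR-RXR pairs (0.271%) on either strand. These matches describe letters in a window around 1 annotated start and say nothing of binding. PPARG itself has 8 start sites in 8 RefSeq mRNAs. EBF1 has 10 start sites, KLF15 and ZNF423 have 4 each, GATA2 has 3 and KLF4 has 2. CG dinucleotides and motifs were read at the first start of each gene only, and counts per gene do not separate the starts.

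PPARG (ENSSSCG00000011579, chr13:68301566-68433951, plus strand) encodes the nuclear receptor without which fat cells do not form. Its level was 190, 118, 149, 147 and 202 TMM CPM in backfat 65, 67, 69, 71 and 72, and 0.474, 1.67, 0.191, 0.885 and 0.488 in the livers in the same order. The lowest backfat library was thus far above the highest liver library, which was liver 67. Backfat exceeded liver by a log2 fold change of 7.78 (SE 0.52, adjusted p = 1.11e-07), and of 8.31 without liver 67. The adipocyte markers of liver 67 summed to 7.58 CPM, within the range of the other livers, but differed singly. FABP4 was highest there, at 5.63 CPM against at most 2.83 in the other livers. PLIN1 and CIDEC were lowest there, at 0.799 and 1.11 CPM, and ADIPOQ and LEP lay within the range of the other livers. The part of fat cells in the PPARG level of liver 67 was not tested.

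CEBPA (ENSSSCG00000002866, chr6:43083200-43085884, minus strand, a single exon) encodes the partner of PPARG in the mature fat cell and a main factor of the hepatocyte. Its level was 366, 179, 490, 223 and 271 TMM CPM in backfat and 135, 25.3, 193, 117 and 126 in liver. Backfat was higher in 5 of 5 pairs of libraries with the same number, but the tissues overlapped, since liver 69 lay above backfat 67. On average backfat was higher by 1.36 on the log2 scale (SE 0.44, adjusted p = 0.0195). Without backfat 69, its highest library, the log2 fold change was 1.13 and was not called (adjusted p = 0.0501), and without liver 67, its lowest, it was 1.06 (adjusted p = 0.00809).

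CEBPB (ENSSSCG00000034207, chr17:51722633-51723673, plus strand), induced early by hormones and in liver by the acute phase response, was at 132, 175, 291, 105 and 150 TMM CPM in backfat and at 151, 129, 125, 312 and 416 in liver. Livers 71 and 72 stood above every backfat library, and the other livers lay within the backfat range. The log2 fold change of -0.41 (SE 0.39, adjusted p = 0.391) was not called, and its 95% interval ran from -1.25 to 0.43. Backfat was higher in 2 of 5 pairs of the same number.

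CEBPD (ENSSSCG00000032367, chr4:79872863-79874481, plus strand), the other early C/EBP factor, was at 147, 333, 93.2, 152 and 158 TMM CPM in backfat and at 205, 168, 163, 408 and 398 in liver. Backfat was lower in 4 of 5 pairs of the same number, and backfat 67 was the exception. The log2 fold change was -0.60 (SE 0.38, adjusted p = 0.193; 95% interval -1.42 to 0.21). Without backfat 67 it was -0.96 and was called higher in liver (adjusted p = 0.0354). As for CEBPB, livers 71 and 72 had the highest levels. With scaling by library size alone, the values of CEBPB and CEBPD changed sign, to 0.35 and 0.18, and were not called, and that scaling moved the median of all genes by 0.71.

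EBF2 (ENSSSCG00000009655, chr14:9816992-10027574, minus strand), a factor of committed adipose progenitors and of brown and beige fat, was the factor nearest to an on and off pattern. Its level was 53.5, 54.4, 50.3, 55.6 and 50.2 TMM CPM in backfat. In liver it was 0 in 4 libraries and 0.0212 in liver 69, so that 17314 counts in backfat stood against 1 in liver. The ratio of the scaled counts was 10190, with a 95% counting interval from 1829 to 402600 that leaves out the spread between animals. The fit by edgeR gave a log2 fold change of 12.77 (SE 0.35, adjusted p = 3.53e-10), a value that depends on its prior count. After TMM scaling the 5 backfat libraries differed little, with a coefficient of variation of 4.62%. The TMM factors of these libraries ran from 1.18 to 1.44, and the coefficients given here hold for this scaling only. Among the 8454 tested genes with a mean of at least 10 TMM CPM in backfat, the median coefficient was 17.6%, and 1.23% of the genes had a lower one than EBF2.

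EBF1 (ENSSSCG00000017046, chr16:64357999-64753188, plus strand) acts beside EBF2 in fat cells and is also a defining factor of B cells. It was at 46.8, 63.8, 70.9, 45.6 and 33.8 TMM CPM in backfat and at 0.549, 2.16, 0.382, 0.190 and 0.163 in liver. The tissues were far apart, and liver 67 was again the highest liver. Its log2 fold change was 6.24 (SE 0.64, adjusted p = 4.37e-06), and 7.27 without liver 67. The 5 B cell markers together were low in both tissues, with sums of 5.38 to 10.2 CPM in backfat and 5.52 to 11.4 in liver. Where 27.0% of all genes tested were called higher in liver, 4 of the 5 markers were. The fifth, CD79A, was not called, with 3.09 to 6.96 CPM in backfat and 2.66 to 3.94 in liver. These CPM lack the TMM factors, which the calls include. The part of B cells in the EBF1 difference was not tested.

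ZNF423 (ENSSSCG00000002838, chr6:34929286-35299695, plus strand), a zinc finger protein that commits progenitors to the fat lineage by raising PPARG, was at 29.5, 25.4, 38.6, 36.8 and 32.5 TMM CPM in backfat. In liver it was at 1.60, 4.78, 1.08, 2.69 and 1.60. Every backfat library lay above every liver. Backfat was higher by a log2 fold change of 3.80 (SE 0.37, adjusted p = 2.95e-06), and 4.19 without liver 67, its highest liver.

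KLF4 (ENSSSCG00000005437, chr1:248604817-248609574, minus strand), a zinc finger factor that raises CEBPB early in the process and is also found in vessel walls, was at 55.8, 35.4, 49.3, 35.1 and 88.7 TMM CPM in backfat. In liver it was at 1.92, 6.59, 1.72, 1.14 and 2.39. Backfat 72 and 65 were the highest backfat libraries, and liver 67 the highest liver. The log2 fold change was 4.26 (SE 0.48, adjusted p = 1.00e-05), and 4.85 without liver 67. Immediate early genes are switched on within minutes of a stimulus. Where 28.0% of all genes tested were called higher in backfat, 10 of 10 immediate early genes were, with a median log2 fold change of 1.58. They summed to 1888, 842, 721, 1017 and 2004 CPM in backfat 65, 67, 69, 71 and 72, so the libraries highest in KLF4 were also highest in this sum, and to 211 to 314 CPM in liver. Their part in the KLF4 difference was not tested.

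GATA2 (ENSSSCG00000011618, chr13:71981139-71997626, plus strand), the factor of the list that restrains fat cell formation, was higher in backfat as well. It was at 9.94, 11.99, 17.1, 14.5 and 13.2 TMM CPM in backfat and at 1.87, 8.10, 1.53, 4.08 and 1.98 in liver. The tissues did not overlap, although liver 67 came near the lowest backfat library. The log2 fold change was 1.93 (SE 0.43, adjusted p = 0.00209) and 2.46 without liver 67, which puts it past the threshold of 2. GATA2 is also a factor of mast cells and endothelium. The 3 mast cell markers matched (KIT, MS4A2 and HDC) summed to 21.2 to 39.5 CPM in backfat and 4.91 to 19.8 in liver, highest in liver 67, and 1 of 3 was called higher in backfat. The 5 endothelial markers summed to 826 to 1634 CPM in backfat and 80.5 to 181 in liver, and 5 of 5 were called higher in backfat. In that direction 28.0% of all genes tested were called. The part of mast cells and endothelium in the GATA2 difference was not tested. An antisense RNA shares 1761 exon bases with GATA2, and the counts were made without strand, so reads of the pair cannot be told apart. Antisense RNAs also share 89 exon bases with EBF1 and 69 with EBF2.

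KLF15 (ENSSSCG00000036742, chr7:53877813-53890558, minus strand), which in fat cells raises PPARG and the glucose transporter gene SLC2A4, was the single factor called higher in liver. It was at 42.2, 70.3, 39.9, 40.5 and 24.2 TMM CPM in backfat and at 107, 86.5, 73.6, 171 and 171 in liver. The tissues did not overlap, and liver was higher in 5 of 5 pairs of the same number. As a log2 fold change, backfat over liver, the difference was -1.49 (SE 0.31, adjusted p = 0.00142), and -1.63 without liver 67. With scaling by library size alone it was -0.71 and was not called (adjusted p = 0.0576). Livers 71 and 72 were again highest, as for CEBPB and CEBPD.

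Compared per exon length, as TMM FPKM with the lengths of the count table, the factors fell into the same upper group in both tissues except for PPARG and KLF15. In backfat the C/EBP genes and PPARG led, with means of 136 ± 70.3 (SD, n = 5) for CEBPD, 116 ± 47.1 for CEBPA, 90.8 ± 38.2 for CEBPB and 72.9 ± 15.5 for PPARG, and each overlapped the next. KLF4 at 17.3 ± 7.17, KLF15 at 15.3 ± 5.88, EBF1 at 12.8 ± 3.67 and EBF2 at 10.5 ± 0.485 came below without overlap with PPARG, and GATA2 at 3.77 ± 0.756 and ZNF423 at 2.45 ± 0.403 were lowest. In liver CEBPD at 207 ± 95.9, CEBPB at 121 ± 69.7, CEBPA at 45.3 ± 22.8 and KLF15 at 42.8 ± 16.3 led, and each overlapped the next. The other 6 factors had means below 1 FPKM there, from GATA2 at 0.993 ± 0.779 to EBF2, seen by its single count. The order depends on the lengths used, since the table gives ZNF423 13313 exon bases and RefSeq 5491, and CEBPB 1880 and 1041.

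The relatives of the factors place each member within its family. Of the 32 other genes of the C/EBP, PPAR, RXR, EBF, KLF, GATA and ZNF423 families, 27 were tested, and 16 were called higher in backfat, 5 higher in liver and 6 not called, with a median log2 fold change of 0.77. The 5 left out for low counts were CEBPE, KLF1, KLF14, KLF17 and GATA5. Of all genes tested, 28.0% were called higher in backfat and 27.0% higher in liver. The plot of fold changes by family sets each factor among its relatives.

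**Figure D2:**
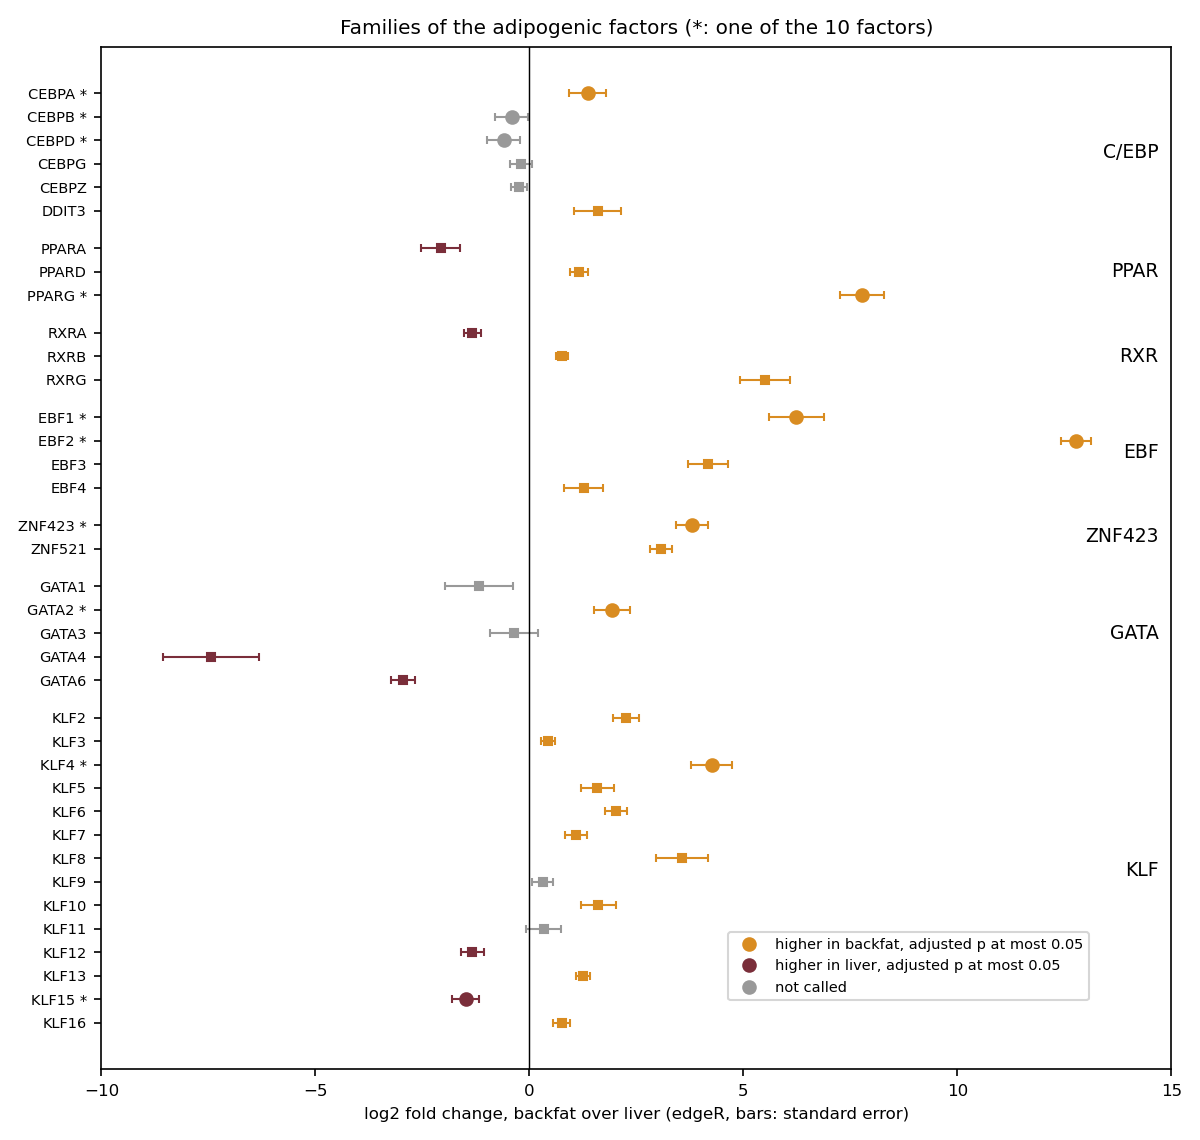
Log2 fold change, backfat over liver (x axis), with its standard error for the 37 tested genes of the families (y axis); an asterisk and a round point mark the 10 factors, colour marks the call. The 4 EBF genes and the ZNF423 pair lie right of 0, the PPAR, RXR and GATA families are divided, and the value of EBF2, fitted against 1 liver count, depends on the prior count of the fit.

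The nuclear receptors were divided between the tissues. PPARA, which drives fatty acid oxidation in hepatocytes, was higher in liver (log2 fold change -2.08), while PPARD, found in most tissues, was higher in backfat (1.17). Of the RXR proteins that pair with PPARG on DNA, RXRA was higher in liver (-1.33), and RXRB (0.77) and RXRG (5.50) were higher in backfat. Adjusted p-values of these 5 genes, from edgeR, were between 6.06e-06 and 0.00198.

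In the EBF and ZNF423 families every tested gene was called higher in backfat, as were 28.0% of all genes tested. EBF3 had a log2 fold change of 4.18 and EBF4 of 1.27, the latter not called when any of 6 single libraries was left out. ZNF521, the paralogue of ZNF423 that restrains fat cell formation, had 3.08. The promoting and the restraining paralogue of this pair were thus both higher in backfat.

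Of the other C/EBP genes, CEBPG (-0.19) and CEBPZ (-0.24) were not called, and DDIT3, whose product blocks C/EBP factors under stress, averaged 0.328 TMM CPM in backfat and was higher there by 1.60 on the log2 scale (adjusted p = 0.0249). In the GATA family, GATA4 (-7.45) and GATA6 (-2.95), factors of liver and gut, were higher in liver, and GATA1 (-1.18) and GATA3 (-0.36) were not called. GATA4 reached -11.28 without backfat 69, the backfat library with the highest hepatocyte marker sum. GATA3, like GATA2 a restraining factor of preadipocytes, changed sign to 0.55 without liver 67 and was not called.

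Most KLF genes went the other way from KLF15. Of 14 tested, 10 were called higher in backfat and 2, KLF15 and KLF12 (-1.34), higher in liver. Of all genes tested, these shares were 28.0% and 27.0%. The log2 fold changes of the others called were 3.56 for KLF8, 2.26 for KLF2, 2.03 for KLF6, 1.61 for KLF10, 1.58 for KLF5, 1.25 for KLF13, 1.09 for KLF7, 0.76 for KLF16 and 0.44 for KLF3, beside KLF4. KLF9 (0.31) and KLF11 (0.34) were not called, and both were called higher in backfat with scaling by library size alone (1.05 and 1.13). KLF2, which represses PPARG, and KLF5 and KLF6, which promote fat cell formation, were thus all higher in backfat. KLF3, with an adjusted p of 0.0455, was not called with 9 of the 10 libraries left out singly.

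Shares within a library do not depend on scaling between libraries. Each gene's TMM FPKM was divided by a sum over related genes in the library, which were the 3 PPAR genes, CEBPA, CEBPB and CEBPD, EBF1 to EBF3, and GATA2, GATA3, GATA4 and GATA6. Left out of these sums were the tested relatives CEBPG, CEBPZ, DDIT3, EBF4 and GATA1. Where adding them changes a call it is said below. Tissue means were compared by a two-sided exact permutation test over all 252 arrangements, whose smallest p is 0.00794, with adjustment over 13 shares. The test treats the libraries as unpaired and makes no use of their numbers. PPARG made up 82.5, 80.3, 79.9, 71.95 and 80.0% of the PPAR sum in backfat and between 0.464 and 5.38% in liver, where PPARD (57.3 ± 18.4%, SD, n = 5) and PPARA (40.2 ± 19.4%) made up most of the sum. The sum itself was 92.2 ± 18.4 FPKM in backfat and 14.6 ± 2.90 in liver. GATA2 made up 51.2 to 68.6% of the sum of the 4 GATA genes in backfat and 2.08 to 10.8% in liver, and here the sum was lower in backfat (6.39 ± 1.496 against 22.5 ± 2.55 FPKM). These differences, and those of PPARA, PPARD, EBF2, EBF3, GATA4 and GATA6, each had an adjusted exact p of 0.0129. The plot of shares by library shows the change in make-up.

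**Figure D3:**
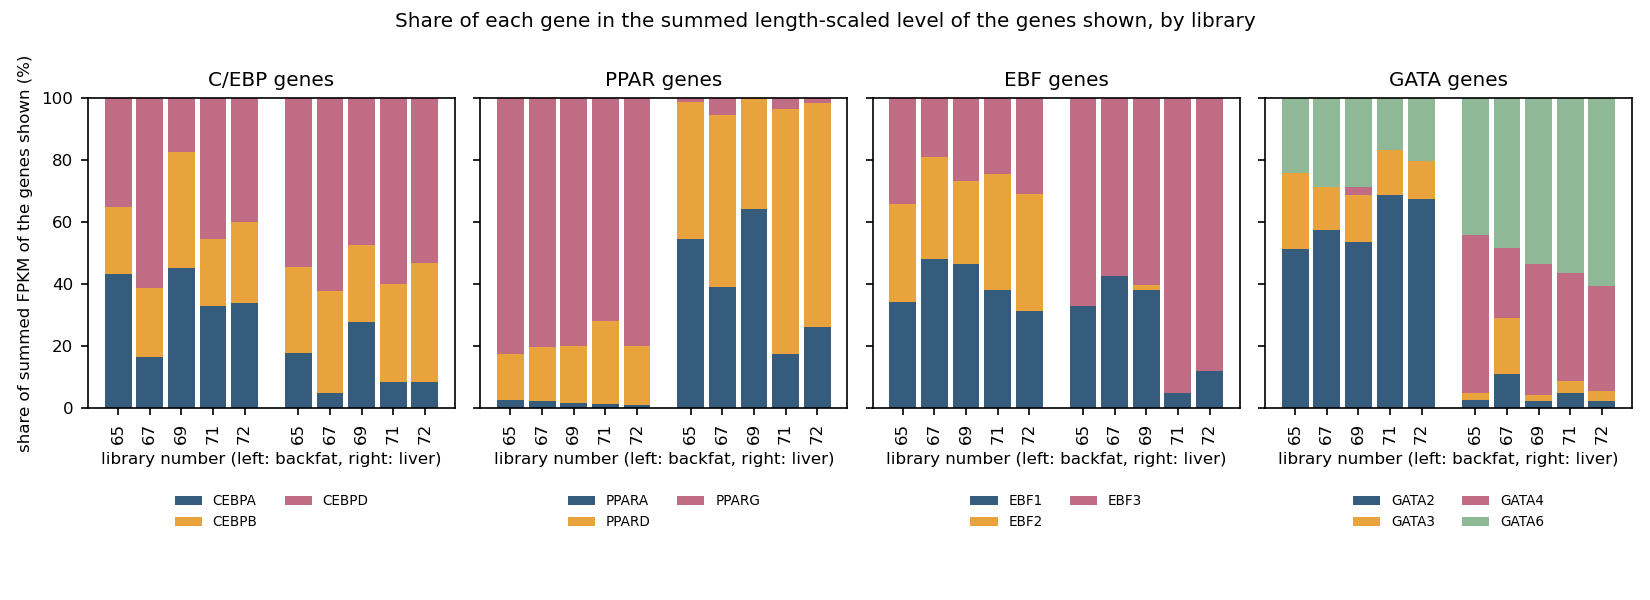
Share of each gene in the summed TMM FPKM of the genes shown (y axis, percent, stacked to 100) in each library (x axis, library number, backfat left and liver right), for 3 C/EBP, 3 PPAR, 3 EBF and 4 GATA genes; CEBPG, CEBPZ, DDIT3, EBF4 and GATA1 are not in the sums. PPARG and GATA2 take most of their sums in backfat and at most 5.38 and 10.8% in liver, and the C/EBP shares differ less.

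The sum of CEBPA, CEBPB and CEBPD was 343 ± 69.9 FPKM (SD, n = 5) in backfat and 373 ± 166 in liver, with overlapping ranges, and its make-up differed in CEBPA. CEBPA made up 43.0, 16.3, 45.1, 32.8 and 33.8% in backfat and 17.7, 4.63, 27.5, 8.47 and 8.29% in liver, a difference of 20.9 points (adjusted exact p = 0.0344), which was above 0.05 when any of 7 single libraries was left out. CEBPB made up 25.9 ± 6.74% and 31.2 ± 5.10% (adjusted exact p = 0.206), and CEBPD 39.9 ± 16.0% and 55.5 ± 5.89% (adjusted exact p = 0.075; without backfat 67 the difference of -21.0 points had an adjusted exact p of 0.0147). Backfat 67 differed from the other backfat libraries, with CEBPD at 61.4% and CEBPA at 16.3%, both within the range of the livers. EBF1, EBF2 and EBF3 summed to 31.96 ± 4.17 FPKM in backfat and 0.651 ± 0.448 in liver, and held 39.6 ± 7.39, 33.3 ± 4.56 and 27.1 ± 5.94% of the sum in backfat and 26.0 ± 16.7, 0.341 ± 0.762 and 73.7 ± 17.1% in liver. The share of EBF1 in this sum did not pass (adjusted exact p = 0.163). Results for this family turn on EBF4, which held 4.48 ± 1.68% of the sum of all 4 EBF genes in backfat and 47.6 ± 10.8% in liver. In that sum EBF1 held 37.9 ± 7.46% in backfat and 13.1 ± 8.40% in liver (adjusted exact p = 0.0159), and EBF3 25.9 ± 5.71 and 39.1 ± 15.2%, which no longer passed (adjusted exact p = 0.0769). EBF2 passed in either sum.

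The factors act through and beside other genes, which were grouped in lists with the 10 factors left out. The lists of regulators share genes with the families above. Those of adipocyte targets and hepatocyte genes share genes with the cell type markers, so the counts are not separate results. The first list held 23 other regulators taken to promote fat cell formation. Of these, 12 were called higher in backfat, 4 higher in liver and 7 not called (median log2 fold change 0.83). STAT5A, which carries growth hormone and prolactin signals, had 2.25, and KLF6 and EBF3 are given above. Higher in liver were PPARGC1A, a coactivator of oxidative and fasting genes (-5.47), RORA, a clock-linked nuclear receptor (-2.49), NR1H3, a sterol receptor (-1.76), and RXRA. A further list held 21 regulators taken to hold fat cell formation back. Of these, 9 were called higher in backfat (5 without backfat 65 or without liver 72), 3 higher in liver and 9 not called (median 0.44). ZNF521, WNT5B, a secreted signal (2.85), and FOXC2 (2.40, and 1.80 without backfat 69, at a mean of 0.452 TMM CPM in backfat) had the largest values in backfat, while SOX9 (-3.23, and -3.94 without backfat 69), TRIB3 (-1.20) and FOXA2, a hepatocyte factor with 0 counts in every backfat library and at least 3720-fold higher in liver by a limit of 3 counts over the backfat libraries, were higher in liver. Called genes in backfat were thus found in both lists of regulators, in a comparison in which 28.0% of all genes were called in that direction. Whether each gene promotes or restrains fat cell formation in these tissues, WNT5B and RORA among them, was not tested.

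Of 17 genes known as targets of PPARG and CEBPA in fat cells, 13 were called higher in backfat, 2 higher in liver and 2 (ACSL1 and GPD1) not called, with a median log2 fold change of 3.66. Among all genes tested, 28.0% were called higher in backfat and 27.0% higher in liver. ADIPOQ, the gene of the hormone adiponectin, had a mean of 3608 ± 1100 TMM CPM (SD, n = 5) in backfat and 0.0344 ± 0.0316 in liver. LPL, which frees fatty acids from blood lipoproteins, had means of 3299 ± 594 and 0.191 ± 0.163, and LEP, the gene of leptin, 68.7 ± 21.8 and 0.00425 ± 0.00950. The exceptions were PCK1, which serves glyceride synthesis in fat and glucose production in liver (-2.03), and AGPAT2, an enzyme of triglyceride synthesis (-1.73). All 10 hepatocyte genes known to depend on C/EBP factors were called higher in liver, with a median of -11.86. TAT, which breaks down tyrosine, had means of 613 ± 184 TMM CPM in liver and 0.0574 ± 0.119 in backfat, G6PC1, the last enzyme of glucose production, 706 ± 400 and 0.0949 ± 0.164, and CPS1 of the urea cycle 568 ± 215 and 0.101 ± 0.217. The backfat level of these genes lay mostly in backfat 69, where TAT was at 0.330 CPM of all counts against at most 0.0221 in the other backfat libraries. Without it their log2 fold changes, fitted against few counts, went from -13.41 to -16.59 for TAT, from -12.87 to -14.79 for G6PC1 and from -12.49 to -16.48 for CPS1. The plot of fold changes by list shows these groups against the factors.

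**Figure D4:**
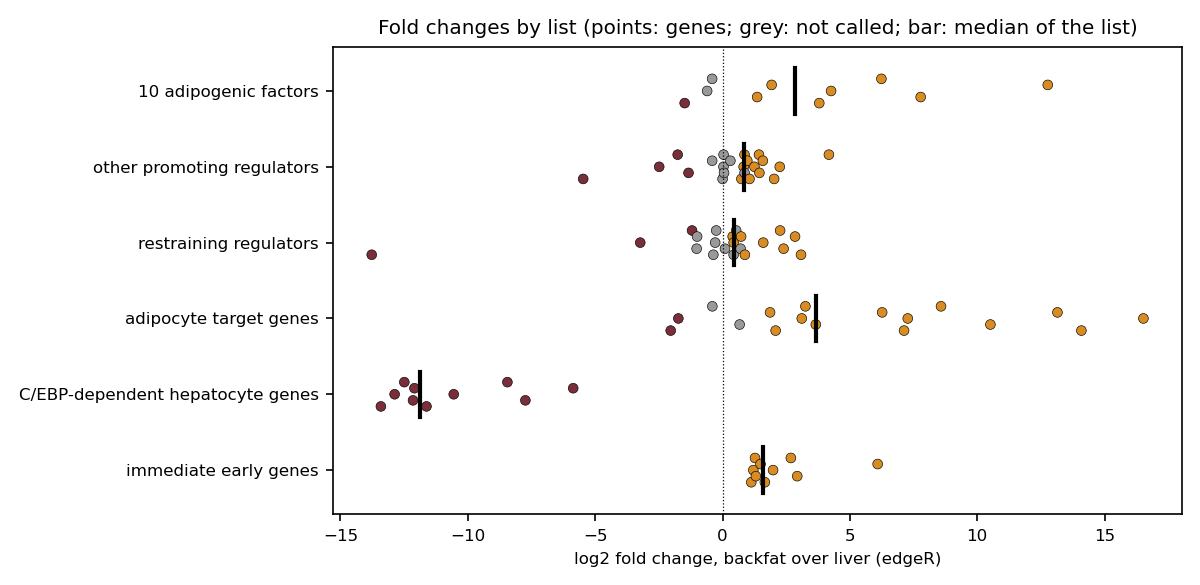
Log2 fold change, backfat over liver (x axis), of each tested gene (points; colour marks the call, grey not called) in 6 lists (y axis), with a bar at the median of the list. Medians run from -11.86 for the C/EBP-dependent hepatocyte genes to 2.86 for the 10 factors and 3.66 for the adipocyte targets. Both lists of regulators lie around 0 with genes on either side.

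The genes whose pattern over the 10 libraries was most like that of each factor were found by the root mean square difference of log2 TMM CPM, with each gene centred on its own mean. The closest match of all was GATA2 with CFD, the fat cell gene of complement factor D (0.192), followed by ZNF423 with MFNG (0.194) and with VIM, the gene of vimentin (0.217). EBF2 was closest to LGALS12, a galectin of fat cells (0.323), and LEP (0.352), PPARG to RDH5 (0.568) and COL5A3 (0.588), and EBF1 to STMN4 (0.493) and EMP1 (0.625). The second match of GATA2 was PKIA (0.232), KLF4 was closest to KCNK2 (0.398) and DRD2 (0.451), CEBPA to WNT5A (0.389) and FRRS1L (0.408), and CEBPB to MESP1 (0.293) and MOB2 (0.300). CEBPD was closest to PPFIA2 (0.361) and CCDC28A (0.368), and KLF15 to SLC26A11 (0.306) and GABARAPL1 (0.311). Among the factors themselves the most alike pairs were CEBPD with KLF15 (0.565), CEBPB with CEBPD (0.651) and KLF4 with ZNF423 (0.656). The measure is dominated by the difference between the tissues, and all genes share the same 10 libraries.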

How the data were processed

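Reads were checked by FastQC, trimmed by Trimmomatic, aligned to Sscrofa11.1 by HISAT2 and assigned to Ensembl release 99 genes by featureCounts 2.0.1 without strand, all by the authors. The deposited values are raw counts, with an exon length per gene. Counts of cytosine calls from 10 WGBS libraries carry no position and were not used here. Under R 4.3.3, edgeR 4.0.16 was used for the filter on low counts (filterByExpr), TMM scaling and the quasi-likelihood test of backfat against liver (glmQLFTest, no covariate), with Benjamini-Hochberg adjustment across 16275 genes. Each standard error is the size of the log2 fold change over the square root of F. The members and lists were chosen with earlier results of these data known. Named were the members, the tested genes of their families, in each other list up to 3 called genes per direction with the largest change, and the 2 nearest patterns per member; ACSL1, GPD1, the genes left out for low counts and the list markers were named beside a result. Symbols not matched were not analysed here.

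Alternatives were DESeq2 1.42.0, limma 3.58.1 (voom), other scalings and filters, the library number as a block and leaving out libraries; leaving out backfat 69 and liver 67 together, and sums over all tested genes of a family, were chosen after seeing the data. Counts of 16275 genes were simulated, of which 200 had a log2 fold change of 3 between the tissues. Of these, edgeR recovered 196, DESeq2 199, voom 192 and the blocked fit 190. Among the other genes they called 11, 62, 14 and 13, in that order. In the data 55.0% of genes were called, so the simulation does not test scaling under such wide change. No libraries were duplicates by a chi-square comparison of their counts. The labels do not say that libraries are separate animals, and p-values cover the spread between them. Starts and exons came from RefSeq on Sscrofa11.1, and motif windows were read from that genome. Figures were drawn in Python 3.11.15 with matplotlib 3.10.9.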

Additional observations from a re-analysis of the deposited data

Results flagged for a closer look

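Dixon's criterion sets the gap between an extreme library and its neighbour against the range of the 5 libraries of a tissue. Chance meets it in about 1 in 20 groups of independent, normally spread values, and 10 of the 46 groups of levels and shares met it. Shares of the same sum are not independent and levels near 0 are not normally spread, so these rates cannot be compared. CEBPD was at 333 TMM CPM in backfat 67, with the next library at 158. In liver 67, EBF1 was at 2.16 and KLF4 at 6.59 TMM CPM, with the next livers at 0.549 and 2.39. EBF2 was at 0.0212 TMM CPM in liver 69, from 1 count, with the other livers at 0, and the share of EBF2 in the sum of EBF1 to EBF3 there was 1.70%. The share of CEBPB in the sum of the 3 C/EBP genes was 37.5% in backfat 69, with the next at 26.2%. The share of PPARG was lowest in backfat 71, at 71.95%, with the next at 79.9%. The share of GATA3 was 24.5% in backfat 65, with the next at 15.2%, and 18.2% in liver 67, with the next at 3.94%. The share of GATA4 was 2.53% in backfat 69, with the next at 0.191%. The part of the make-up of liver 67 and backfat 69 in these values was not tested.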

How the results depend on the processing

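Across the alternatives, 182 values of the 10 factors kept their direction and their side of the threshold, 2 lost the call, 1 gained it and 2 changed sign, and for the other named genes these numbers were 843, 24, 3 and 9. Where every library had to hold at least 10 counts of a gene, which left 13026 genes and removed PPARG, EBF1 and EBF2, 4 factors were higher in backfat, 2 of them with a log2 fold change of at least 2, 1 restraining regulator was higher in liver, and 3 hepatocyte genes were. With sums over all tested genes of the family, shares differed by 24.8 points for EBF1 (now past the threshold) and by -13.3 for EBF3 (no longer), and no other call of a share changed. With library size alone, which moved the median of all genes by 0.71, 0 factors and 1 adipocyte target were higher in liver, and log2 fold changes turned to 0.35 for CEBPB, 0.18 for CEBPD, 0.47 for CEBPG, 0.46 for CEBPZ and 0.45 for GATA3, while KLF12, TRIB3 and PCK1 were not called (adjusted p = 0.0819, 0.249 and 0.0518) and KLF9 and KLF11 were called (0.00360 and 0.0328). GATA3 was also positive with voom (0.17), without liver 67 (0.55) and without backfat 69 and liver 67 (0.46), and GATA1 with the last 2 settings (0.15 and 0.31). With single libraries left out, log2 fold changes ran from -1.96 (without backfat 65) to 0.15 for GATA1 and from -0.59 (without liver 69) to 0.55 for GATA3, 1 to 2 factors were higher in liver (2 without backfat 67), and 5 to 8 restraining regulators were higher in backfat (5 without backfat 65 or liver 72). Shares differed by 18.2 to 25.4 points for CEBPA, -8.17 to -3.47 for CEBPB, -21.0 to -9.99 for CEBPD and 8.07 to 13.2 for GATA3 with single libraries left out. As shares of counts, the differences were -10.3 points for CEBPB and 12.2 for GATA3, both past the threshold (adjusted exact permutation p = 0.0469). The causes of these changes were not tested.

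The numbers in the column names were used for the replicate block, although no source says that they mark animals. Deviations from the tissue means correlated by 0.0490 to 0.238 between libraries of the same number, and 4 of 5 backfat libraries correlated best with the liver of their own number. With the replicate block, 7 factors were higher in backfat and 1 in liver, and no call of a factor changed. GATA3 turned to 0.14, and DDIT3 was not called (adjusted p = 0.0552). Depth limits the ratio of EBF2, which rests on 1 count in liver.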

Other observations

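The marker lists of cell types other than adipocytes and hepatocytes gave the counts of calls below. Beside them, 28.0% of all genes tested were called higher in backfat and 27.0% higher in liver. Of 7 markers of adipose progenitors and fibroblasts, 6 were called higher in backfat and 1 higher in liver, with a median log2 fold change of 2.19. All 5 endothelial markers matched (median 2.44) and all 5 markers of smooth muscle and pericytes (1.79) were called higher in backfat. Of 5 macrophage markers, 3 were called higher in liver and 2 were not called (-1.37). None of the 3 skeletal muscle markers was called, although their sum in backfat ran from 11.7 to 573 CPM, highest in backfat 65. Of 13 mitochondrial protein genes, 2 were called higher in liver and 11 were not called.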
